A study of Oryza sativa with 21 samples.

Results

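Carotenoid and xanthophyll synthesis was followed through 9 genes in rice leaves in which NRP1, named in the study's title as a negative regulator of photosynthesis, had been overexpressed or edited. They were chosen by locus identifier, 9 of the 91080 identifiers in the count table, as the core steps from phytoene to violaxanthin, and all 9 passed the filter on low counts. RNA came from the second leaf from the top of field-grown rice at the heading stage. Each of 7 lines gave 3 libraries. Besides wild type (WT) these were overexpressors of NRP1 (OE), numbered OE-2, OE-3, OE-4, and lines carrying a CRISPR/Cas9 edit of it (CRISPR), numbered C-13, C-14, C-16. The sources used here do not give the variety, the transgene's promoter or each line's edited sequence, and the labels do not say that replicates were separate plants. The p-values below against WT or among single lines therefore measure only the spread between libraries, which may be technical. The main comparison of OE with CRISPR lines used counts summed per line, and the test of gene ratios used line means. The error in both is the spread between lines.

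Carotenoids are plastid isoprenoids that harvest light and protect chlorophyll from excess light. Phytoene synthase joins geranylgeranyl diphosphate units into phytoene, desaturases and isomerases turn phytoene into lycopene, and cyclases close the ends of lycopene into a branch toward lutein and a branch toward beta-carotene. Hydroxylation of beta-carotene gives zeaxanthin, which zeaxanthin epoxidase converts into violaxanthin, the form reversed by de-epoxidation in strong light and a precursor of abscisic acid.

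Library totals ranged from 13788243 to 19032786 counts. NRP1 itself (OS07G0471900) was 135-fold higher in the OE lines than in WT (log2 fold change 7.08, SE 0.16, adjusted p = 1.19e-16 by edgeR). Its CRISPR lines stood at 1.16-fold of WT (edgeR adjusted p = 0.37). Outside the OE lines NRP1 was low, at 1.93 to 3.00 CPM (the count relative to the TMM-scaled library size) in WT and 2.01 to 3.87 CPM in CRISPR libraries. Whether the edits removed NRP1 function was not tested. Replicate pairs within a line differed by 6.01 to 31.0 times the Poisson variance. The pairs of WT replicate 3 with WT replicates 1 and 2 were among the widest, at 31.0 and 28.4 times, and this library and OE-3 replicate 1 lay at the ends of principal component 2, which held 16.8% of the variance. Summed leaf mesophyll markers, 5 genes all detected in every library, ranged over 56354 to 75064 CPM in WT, 48951 to 70360 in OE and 68445 to 79781 in CRISPR libraries. Most of this sum was 1 gene, RCA, at 40185 to 65396 CPM. Of 7 markers of other tissues, the root marker RCC3, the endosperm marker GLB1, the meristem marker OSH1 and the anther marker C6 were at 0 in all 21 libraries. A second endosperm marker, GLUA2, was detected in every library (3.24 to 6.21 CPM), as was the guard cell marker SLAC1 (24.2 to 50.2 CPM). CDKB2, a marker of dividing cells, reached at most 0.413 CPM and was at 0 in 5 libraries. In bulk leaf tissue, fewer cells of a type and less RNA per cell cannot be told apart.

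The strongest difference among the 9 genes was in ZEP (OS04G0448900), the zeaxanthin epoxidase gene, which was lower in the overexpression lines. WT replicates 1, 2 and 3 held 661, 703 and 1042 CPM. OE-2 held 695, 555 and 582, OE-3 held 429, 666 and 518 and OE-4 held 672, 616 and 580.0, each in the order of replicates 1, 2 and 3. The CRISPR libraries stood at 861, 887 and 812 in C-13, 816, 829.6 and 781 in C-14 and 827, 735 and 924 in C-16. All 9 OE libraries therefore lay below all 9 CRISPR libraries, a separation in that direction found in 2.76% of tested genes. WT replicate 1 lay inside the OE range, replicate 2 just above it, and replicate 3 was the highest of all 21 libraries, so that WT spanned the whole CRISPR range with no library inside it. The mesophyll markers RCA and PRK also had all 9 OE libraries below all 9 CRISPR libraries, while the other mesophyll markers overlapped.

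Averaged over lines, ZEP stood at 590.4 ± 46.1 CPM in OE and 830.4 ± 22.4 in CRISPR (SD, n = 3 line means each), against 802 ± 209 in WT (SD, n = 3 libraries). With each line as 1 replicate, ZEP in OE was 0.730-fold of CRISPR (log2 fold change -0.45, SE 0.09, edgeR adjusted p = 0.0131). That call was kept without each of the 18 libraries in turn and was lost without line C-13 (edgeR adjusted p = 0.0634) or C-16 (edgeR adjusted p = 0.0629). Against WT, ZEP in OE was 0.735-fold (log2 fold change -0.44, SE 0.13, edgeR adjusted p = 0.0499), which only just passed the threshold of 0.05. It remained called in 3 of the 21 fits that each left out 1 library, those without WT replicate 1, OE-2 replicate 1 or OE-3 replicate 2. Without WT replicate 3 the log2 fold change was -0.21 (edgeR adjusted p = 0.479), so the size of the difference from WT rests on that library. By line, ZEP fell in OE-3, to 0.671-fold of WT (edgeR adjusted p = 0.0174), and this call was lost without WT replicate 3 (edgeR adjusted p = 0.139) or OE-3 replicate 1 (edgeR adjusted p = 0.119). The estimates in OE-2 and OE-4 were 0.762-fold and 0.777-fold, with edgeR adjusted p = 0.207 and 0.666. In the CRISPR lines ZEP stood at 1.04-fold of WT (95% interval 0.857 to 1.25, edgeR adjusted p = 0.843), and the sign turned without WT replicate 1 or 2.

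**Figure D1:**
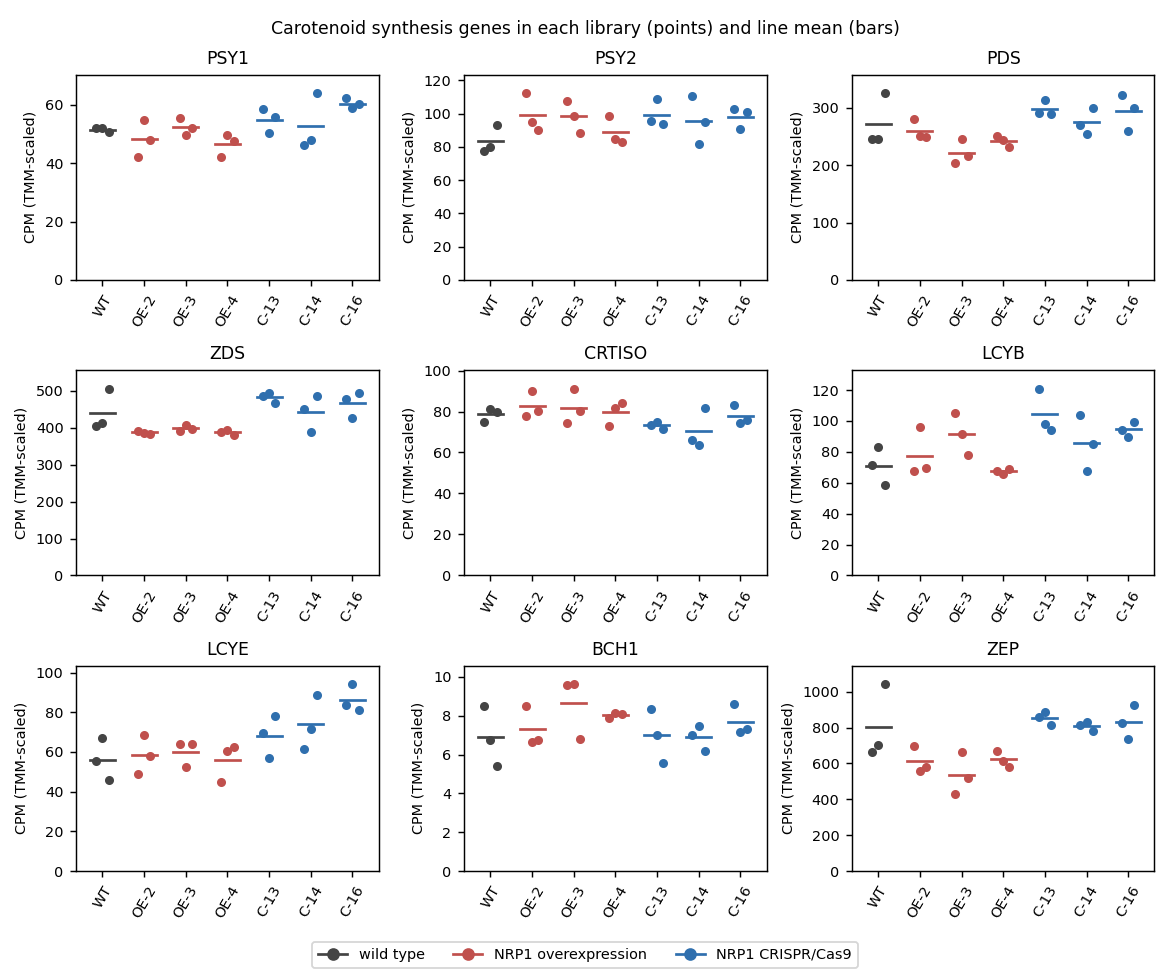
Level of each of the 9 genes in CPM (vertical axis, linear, from 0) in the 3 libraries of each of the 7 lines (horizontal axis). Points are libraries and bars are line means. In the ZEP panel the 9 OE points, 429 to 695 CPM, lie below the 9 CRISPR points, 735 to 924 CPM.

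For both cyclase genes, which set the branch from lycopene, the highest line mean was that of a CRISPR line. LCYE (OS01G0581300) encodes lycopene epsilon-cyclase of the lutein branch. Its WT libraries held 55.4, 67.1 and 45.9 CPM, and OE-2, OE-3 and OE-4 held 48.7, 68.3 and 58.2, then 64.0, 52.5 and 63.9, then 44.8, 60.7 and 62.5. The CRISPR values were 69.5, 56.9 and 78.2 in C-13, 61.6, 71.7 and 88.8 in C-14 and 83.7, 94.1 and 81.1 in C-16. All 3 C-16 libraries exceeded every WT and OE library, while those of C-13 and C-14 overlapped both. Line means were 58.2 ± 2.09 CPM in OE and 76.2 ± 9.23 in CRISPR (SD, n = 3 line means each), with 56.1 ± 10.6 in WT (SD, n = 3 libraries).

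LCYE in OE was 0.785-fold of CRISPR (log2 fold change -0.35, SE 0.10, edgeR adjusted p = 0.0443). Leaving out 1 library kept this call in 11 of 18 fits. It was lost without replicate 1 of OE-2, OE-4 or C-13, replicate 2 of OE-3, or replicate 3 of C-13, C-14 or C-16 (edgeR adjusted p from 0.0503 to 0.109), and without any 1 line other than OE-3 (edgeR adjusted p from 0.0536 to 0.147). Against WT, LCYE in the CRISPR lines was 1.35-fold (95% interval 1.1 to 1.66), just short of the threshold (edgeR adjusted p = 0.0533), and it was called in 7 of the 21 fits without 1 library. The line estimates were 1.21-fold in C-13, 1.32-fold in C-14 and 1.54-fold in C-16. C-16 was called (edgeR adjusted p = 0.0348), and not without WT replicate 1, WT replicate 3 or any 1 of its own libraries (edgeR adjusted p from 0.0787 to 0.123). In OE the gene stood at 1.04-fold of WT (95% interval 0.846 to 1.27), with a sign that turned without WT replicate 3.

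LCYB (OS02G0190600) encodes lycopene beta-cyclase, which acts in both branches. WT held 71.4, 83.2 and 58.3 CPM, OE-2 67.3, 95.8 and 69.7, OE-3 105, 91.4 and 78.1 and OE-4 67.4, 65.8 and 69.2. C-13 held 121, 97.9 and 94.2, C-14 104, 67.9 and 84.8 and C-16 94.2, 89.7 and 99.4. The 3 libraries of C-13 and of C-16 lay above all 3 of WT, C-14 overlapped WT, and all 3 OE-3 libraries lay inside the CRISPR range while 2 of the 3 OE-4 libraries lay below it. In the CRISPR lines LCYB was 1.33-fold of WT (95% interval 1.09 to 1.62), again just short of the threshold (edgeR adjusted p = 0.0545). C-13 alone was called at 1.47-fold (edgeR adjusted p = 0.0492). That call held in 7 of 21 fits without 1 library, and only WT replicate 2, replicates 1 and 2 of OE-2, replicates 1 and 3 of OE-3 and replicates 1 and 2 of C-14 could be left out. C-14 and C-16 stood at 1.2-fold and 1.33-fold without a call. OE was 0.853-fold of CRISPR (95% interval 0.702 to 1.04, edgeR adjusted p = 0.229) and 1.1-fold of WT (edgeR adjusted p = 0.585).

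The desaturase genes varied together and had lower estimates in OE than in CRISPR lines, without passing the threshold. PDS (OS03G0184000) encodes phytoene desaturase. It held 246, 245 and 326 CPM in WT, 281, 251 and 249 in OE-2, 204, 246 and 217 in OE-3 and 252, 244 and 232 in OE-4. The values were 292, 315 and 289.8 in C-13, 271, 254 and 299 in C-14 and 322, 260.2 and 301 in C-16. OE-2 replicate 1 and several CRISPR libraries overlapped, and WT replicate 3 was again the highest library. PDS in OE was 0.855-fold of CRISPR (95% interval 0.746 to 0.979, edgeR adjusted p = 0.105).

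ZDS (OS07G0204900), the zeta-carotene desaturase gene, held 405, 413 and 506 CPM in WT, with 392, 387 and 384 in OE-2, 390.4, 408 and 398 in OE-3 and 388, 394 and 381 in OE-4. The CRISPR libraries held 488, 494 and 467 in C-13, 451, 389 and 486 in C-14 and 478, 428 and 495 in C-16. The 9 OE libraries fell within a narrow band of 381 to 408 CPM, which only C-14 replicate 2 and WT replicate 1 entered from the other lines. OE was 0.864-fold of CRISPR (95% interval 0.764 to 0.978, edgeR adjusted p = 0.099). Against WT, OE stood at 0.886-fold for PDS and 0.886-fold for ZDS (edgeR adjusted p = 0.285 and 0.194). CRISPR stood at 1.06-fold and 1.05-fold, and both of these signs turned without WT replicate 2.

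At the entry of the pathway, neither phytoene synthase gene was called in a comparison of genotypes or of a line with WT. PSY1 (OS06G0729000) held 52.0, 52.0 and 50.5 CPM in WT, 42.1, 54.7 and 47.8 in OE-2, 55.5, 49.6 and 52.1 in OE-3 and 42.2, 49.6 and 47.6 in OE-4. Its CRISPR values were 58.5, 50.2 and 55.7 in C-13, 46.2, 47.8 and 63.9 in C-14 and 62.2, 58.8 and 60.1 in C-16. C-16 lay above every WT and OE library. OE-4 lay below every WT library and every library of C-13, and overlapped C-14. Neither C-16 nor OE-4 was called against WT (edgeR adjusted p = 0.241 and 0.889). Shares of all tested genes for separations of single lines, here and for LCYE and LCYB, are not given. PSY1 in OE was 0.899-fold of CRISPR (95% interval 0.786 to 1.03, edgeR adjusted p = 0.247), and it was 0.950-fold of WT in OE and 1.08-fold in CRISPR.

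PSY2 (OS12G0626400), the other phytoene synthase gene among the 9, held 77.7, 79.8 and 93.0 CPM in WT. It held 112, 95.1 and 90.5 in OE-2, 108, 98.6 and 88.5 in OE-3, 98.7, 84.7 and 82.9 in OE-4, 95.4, 109 and 93.7 in C-13, 111, 81.8 and 94.98 in C-14 and 103, 90.5 and 101 in C-16. Its WT mean was the lowest of the 7 lines, with overlap between WT and both genotypes. Estimates were 1.14-fold of WT in OE (edgeR adjusted p = 0.274) and 1.17-fold in CRISPR (edgeR adjusted p = 0.145). The OE to CRISPR fold had a 95% interval of 0.89 to 1.12 around 0.997.

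CRTISO (OS11G0572700), the carotenoid isomerase gene, had its estimate in the opposite direction. It held 75.1, 81.4 and 79.8 CPM in WT, 77.6, 90.1 and 80.2 in OE-2, 74.2, 91.1 and 80.3 in OE-3 and 73.2, 81.6 and 84.3 in OE-4. C-13 held 73.6, 74.7 and 71.5, C-14 66.3, 63.6 and 81.6 and C-16 82.9, 74.4 and 75.6. The libraries of the 3 genotypes overlapped, although the 3 OE line means exceeded the 3 CRISPR line means. OE was 1.13-fold of CRISPR (95% interval 1.01 to 1.27, edgeR adjusted p = 0.129), 1.03-fold of WT, and CRISPR was 0.937-fold of WT.

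BCH1 (OS03G0125100), a beta-carotene hydroxylase gene, rested on few reads, 78 to 163 counts per library. WT held 8.48, 6.77 and 5.44 CPM, OE-2 8.52, 6.64 and 6.73, OE-3 9.58, 9.62 and 6.78 and OE-4 7.91, 8.14 and 8.07. C-13 held 8.34, 7.03 and 5.57, C-14 6.99, 7.47 and 6.21 and C-16 8.63, 7.15 and 7.32. The 3 genotypes overlapped, and OE was 1.13-fold of CRISPR (95% interval 0.938 to 1.37, edgeR adjusted p = 0.329). OE stood at 1.15-fold and CRISPR at 1.04-fold of WT, with edgeR adjusted p = 0.459 and 0.859.

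Counted over the 9 genes, ZEP was the 1 gene called in OE against WT, where 4.67% of all tested genes were called, 1.48% higher and 3.19% lower. None of the 9 was called in CRISPR against WT by edgeR, where 11.7% of tested genes were called, 5.34% higher and 6.37% lower; 3 had an unadjusted p under 0.05, and the DESeq2 Wald test called 2, LCYB and LCYE. In both comparisons each gene's 9 libraries overlapped those of WT, while 1.78% of tested genes separated upward and 1.36% downward in OE, and 4% and 4.61% did so in CRISPR. These comparisons share the WT libraries. In OE against CRISPR lines ZEP and LCYE were called, both lower, against 17.4% of all tested genes, 9.71% higher and 7.65% lower. Line means did not overlap for 5 genes that were lower in OE, PSY1, PDS, ZDS, LCYE and ZEP, and for CRTISO, which was higher, while 20.7% of tested genes separated downward and 19.1% upward. The median log2 fold change of the 9 genes was -0.21, with 7 of 9 below 0, beside 0.01 over all tested genes. It was 0.05 in OE and 0.09 in CRISPR against WT, beside -0.00 and 0.01 over all tested genes. With single libraries in place of line sums 6 of the 9 genes were called in OE against CRISPR, beside 42.3% of all tested genes (42.1% with the replicate number as a block), where the error is the spread between libraries and not between lines.

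**Figure D2:**
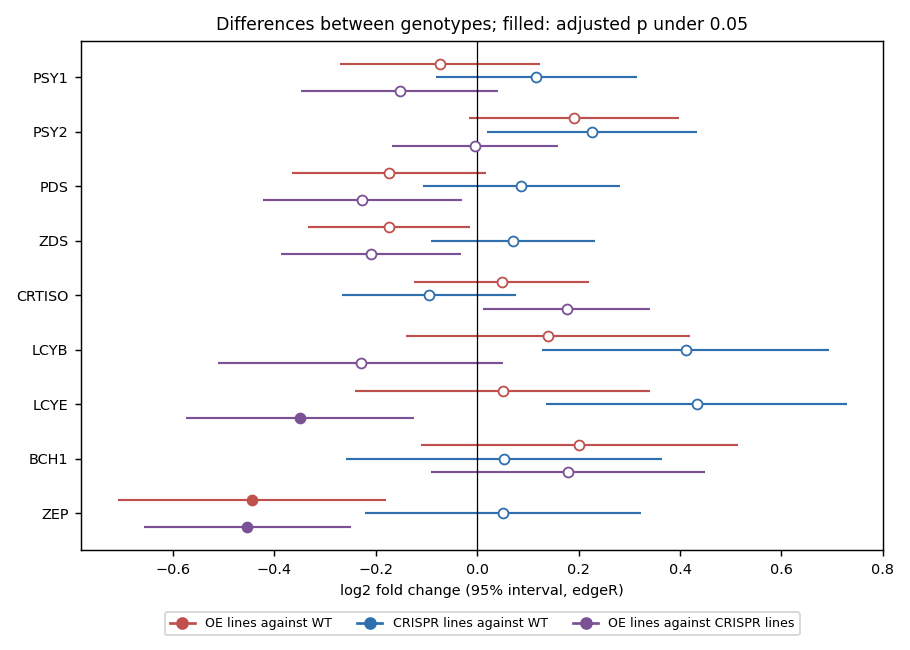
Log2 fold change (horizontal axis, with 95% intervals from edgeR) of each of the 9 genes in OE against WT, CRISPR against WT and OE against CRISPR lines. Filled points have an adjusted p under 0.05, which are ZEP in OE against WT and ZEP and LCYE in OE against CRISPR.

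Line by line against WT, 1 of the 9 genes was called in OE-3 (ZEP, lower), where 18.9% of tested genes were called and 11.1% were lower. LCYB was the only one in C-13, where 6% of genes were called and 2.3% were higher, and LCYE the only one in C-16, where 6.38% were called and 3.09% were higher. OE-2, OE-4 and C-14 had 0 of 9 by edgeR and by DESeq2, with 1 each at an unadjusted p under 0.05, beside 2.04%, 0.58% and 3.16% of tested genes called. A test for any difference among the 7 lines called 5 of 9, beside 36.7% of all tested genes. These were ZEP (edgeR adjusted p = 0.00994), LCYE (0.0296), LCYB (0.0312), ZDS (0.0368) and PDS (0.0455). That count ranged from 2 to 6 when 1 library was left out, and stayed at 4 or more without WT replicate 1 or 3, OE-2 replicate 1, OE-3 replicate 2, C-14 replicates 2 or 3, or C-16 replicate 2. Among the 3 OE lines edgeR called 0 of 9 (1 at an unadjusted p under 0.05, 0 by DESeq2), beside 9.82% of tested genes. Among the 3 CRISPR lines it called 0 of 9 (0 at an unadjusted p under 0.05, 0 by DESeq2), beside 0.442%.

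The order of line means differed between genes. ZEP, PDS and ZDS had the 3 OE lines lowest, then WT, then C-14, C-16 and C-13. LCYE ran from OE-4 and WT through OE-2 and OE-3 to C-13, C-14 and C-16. LCYB had OE-4 and WT lowest and C-13 highest, with OE-3 between C-14 and C-16. CRTISO had C-14 lowest and OE-2 highest. From the lowest to the highest line the ratio was 1.59 for ZEP, 1.55 for LCYB, 1.54 for LCYE, 1.34 for PDS, 1.30 for PSY1, 1.26 for BCH1, 1.25 for ZDS, 1.19 for PSY2 and 1.17 for CRTISO. Of the 54 neighbouring pairs of lines in these orders, edgeR called 0, with 1 at an unadjusted p under 0.05 and a lowest adjusted p of 0.292. Neighbours were picked by sorting these same means, which favours small differences, so this count cannot test the orders.

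Each CRISPR line was also set against each OE line for each gene, 81 values in all. The CRISPR line was higher in all 15 that edgeR called, 4 of 9 pairs for ZEP, 3 for LCYE and for ZDS, 2 for LCYB and for PDS, and 1 for PSY1. C-13 was 1.59-fold, C-16 1.54-fold and C-14 1.5-fold of OE-3 in ZEP (edgeR adjusted p = 0.00464, 0.00906 and 0.0121). LCYE in C-16 was called against OE-2, OE-3 and OE-4, at 1.48-fold, 1.43-fold and 1.54-fold. ZDS in C-13 was called against OE-2, OE-3 and OE-4, at 1.25-fold, 1.21-fold and 1.25-fold. The pairs of a gene reuse the same lines and are not independent. Over all tested genes the share called in either direction against OE-2 was 15.3% for C-13, 13.3% for C-14 and 13.5% for C-16. It was 30.2%, 25.9% and 24.7% against OE-3, and 16.7%, 13.4% and 17.8% against OE-4. Shares by direction were not computed for these pairs, so the common direction of the 15 has no such share beside it.

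Ratios of paired steps within a library do not depend on library scaling, and they were compared between OE and CRISPR line means by an exact two-sided permutation test, whose smallest p is 0.1 with 3 against 3. The log2 count ratio of BCH1 to ZEP, successive steps from beta-carotene to violaxanthin, was -6.28, -6.69 and -7.57 in the WT libraries. Its line means ranged from -6.38 to -5.95 in OE and from -6.95 to -6.74 in CRISPR, without overlap, a difference of 0.65 or 1.57-fold (exact permutation p = 0.1, adjusted p = 0.2 over 4 ratios). The WT libraries covered the CRISPR range and entered the low end of the OE range. BCH1 stood at only 5.44 to 9.62 CPM, beside 129 to 391 CPM for BCH2, a hydroxylase isoform described below. In OE against CRISPR the log2 fold change was -0.79 for BCH2 and -0.45 for ZEP. The BCH1 to ZEP ratio therefore does not stand for the hydroxylation step as a whole, and a ratio of BCH2 to ZEP was not computed. PSY1 relative to PSY2 had line means from -1.04 to -0.90 in OE and -0.87 to -0.70 in CRISPR, a difference of -0.15 (exact permutation p = 0.1, adjusted p = 0.2), with WT at -0.69 ± 0.16 (SD, n = 3 libraries). LCYE relative to LCYB differed by -0.11 (exact permutation p = 0.6, adjusted p = 0.8) and PDS relative to ZDS by -0.02 (exact permutation p = 0.9, adjusted p = 0.9), both with overlapping line means. The C-14 libraries held log2 LCYE to LCYB ratios of -0.75, 0.08 and 0.07, so libraries of 1 line differed more than the genotypes did. No ratio could reach 0.05 in this design.

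**Figure D3:**
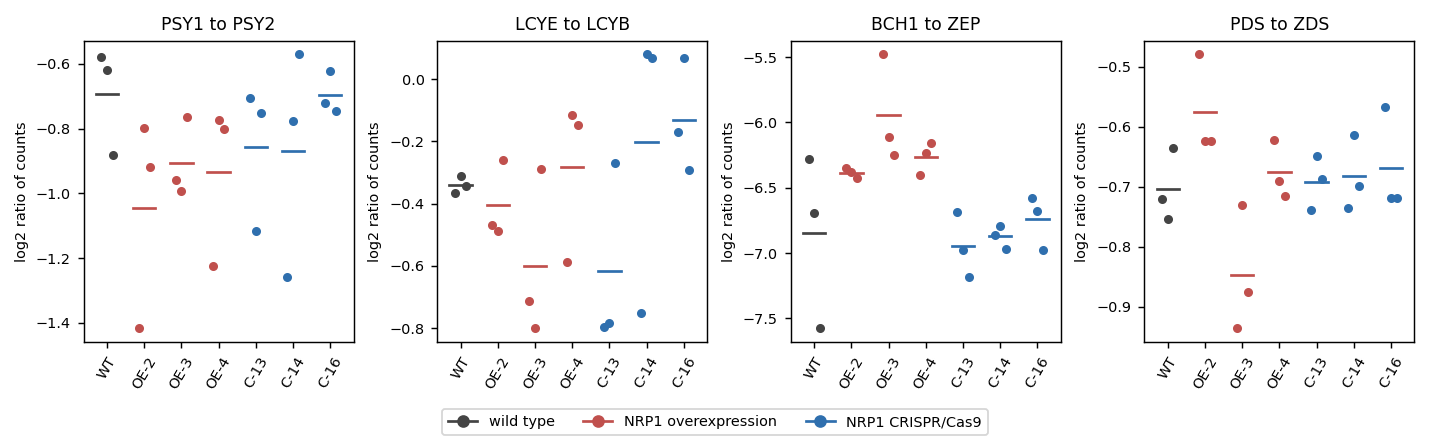
Log2 ratio of counts (vertical axis) of 4 pairs of carotenoid genes within each library, by line. Points are libraries and bars line means, and in the BCH1 to ZEP panel the OE means (-6.38 to -5.95) lie above the CRISPR means (-6.95 to -6.74).

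Over the 21 libraries the level of PDS followed ZEP (Pearson r = 0.90 on log2 CPM) and ZDS (r = 0.85), and ZDS followed ZEP (r = 0.80). PSY1 followed LCYE (r = 0.81). After subtraction of line means these values were 0.83, 0.85, 0.60 and 0.78. LCYE and ZEP had r = 0.13 over libraries and -0.70 within lines, and BCH1 and ZEP had the lowest value over libraries, -0.40. The libraries share tissue, scaling and line, so these are descriptions. Among the 27 genes most like the 9 (3 for each, by r over 21 libraries), 2 stood in the pathway lists, violaxanthin de-epoxidase VDE (OS04G0379700) near PSY1 at r = 0.86 and DXS1 (OS05G0408900) near LCYE at r = 0.89.

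The other hydroxylase isoforms were called where BCH1 was not, a difference between genes that was not tested. BCH2 (OS04G0578400) encodes a beta-carotene hydroxylase, and its WT libraries held 157, 173 and 191 CPM, with 192, 193 and 146 in OE-2, 196, 183 and 135 in OE-3 and 182, 129 and 142 in OE-4. The CRISPR values were 295, 288 and 299.7 in C-13, 391, 250.3 and 254 in C-14 and 299.5, 258 and 322 in C-16. Every CRISPR library exceeded every WT and OE library. Over all tested genes 4% separated upward in CRISPR against WT, and 2.76% had all 9 OE libraries below all 9 CRISPR libraries. The share with both separations was not computed. BCH2 rose 1.70-fold in CRISPR against WT (log2 fold change 0.77, SE 0.15, edgeR adjusted p = 0.003), was called in each CRISPR line, and kept its call without any 1 library. In OE it was 0.576-fold of CRISPR (edgeR adjusted p = 0.00129) and 0.957-fold of WT (edgeR adjusted p = 0.841). BCH3 (OS10G0533500), the remaining isoform, held 9.68, 13.9 and 5.51 CPM in WT and 3.76 to 7.90 in OE libraries, and 11.3 to 38.9 in CRISPR libraries. It rose 2.36-fold in CRISPR (edgeR adjusted p = 0.0162), a call lost without WT replicate 1 or 3 (highest edgeR adjusted p = 0.0877), and OE was 0.263-fold of CRISPR (edgeR adjusted p = 0.000868). Its OE estimate against WT was 0.593-fold (edgeR adjusted p = 0.155). The sources used here do not say how reads shared by similar isoforms were counted, so the split between BCH1, BCH2 and BCH3 is uncertain.

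**Figure D4:**
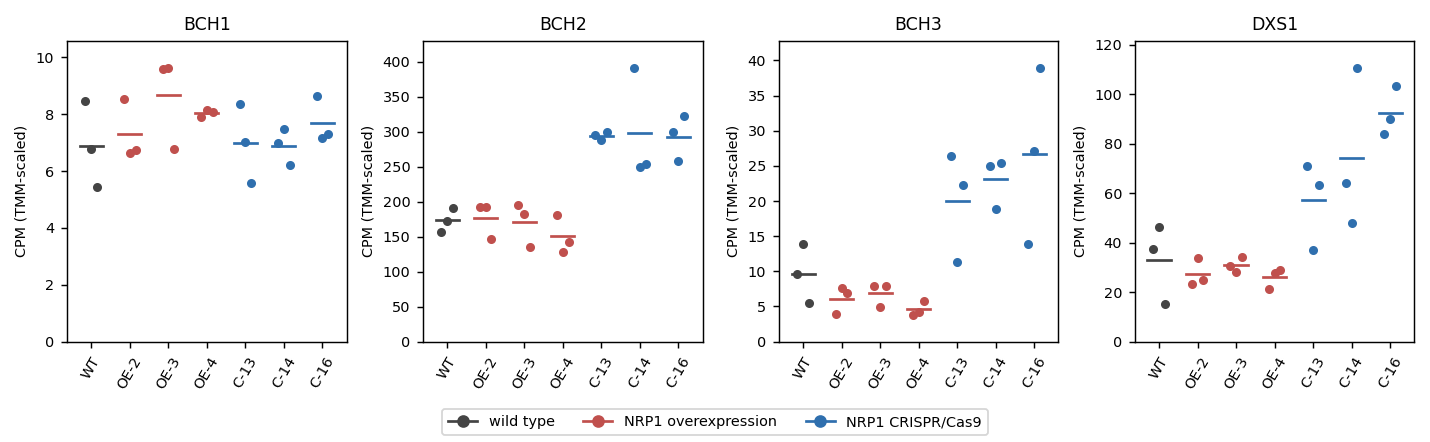
CPM (vertical axis, linear, from 0) of the hydroxylase genes BCH1, BCH2 and BCH3 and of DXS1 in each library, by line, with bars at line means. BCH2 and BCH3 in CRISPR libraries lie above all OE libraries, as in 2.76% of tested genes, while BCH1 overlaps between genotypes.

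Of 10 other carotenoid steps, all tested, 4 rose in CRISPR against WT and 0 fell, where 5.34% of all tested genes rose and 6.37% fell. Besides BCH2 and BCH3 these were OR (OS02G0651300), a chaperone of phytoene synthase, at 1.25-fold (edgeR adjusted p = 0.0388), and Z-ISO (OS12G0405200), zeta-carotene isomerase, at 1.23-fold (edgeR adjusted p = 0.0449). The OR call was lost without any 1 WT library, replicate 1 or 3 of C-13, or replicate 2 or 3 of C-14 or C-16. The Z-ISO call held in 8 of 21 such fits, those without WT replicate 3, replicate 1 or 2 of OE-2 or OE-3, replicate 2 or 3 of C-14, or C-16 replicate 2. In OE against WT edgeR called 0 of these 10 (1 at an unadjusted p under 0.05, 0 by DESeq2), beside 4.67% of all tested genes. Set against CRISPR, where 7.65% of all tested genes were lower in OE and 9.71% higher, OE was lower for 4, BCH2, BCH3, Z-ISO (0.735-fold) and OR (0.757-fold, lost without OE-2 replicate 1, OE-3 replicate 2 or C-14 replicate 3), and higher for CYP97B4 (OS02G0173100), a cytochrome P450, at 1.45-fold (edgeR adjusted p = 0.0111). PSY3 (OS09G0555500), the remaining phytoene synthase isoform, stood at 1.13-fold of WT in OE, 1.1-fold in CRISPR and 1.04-fold for OE against CRISPR, uncalled. VDE, which reverses the ZEP reaction, stood at 0.917-fold of WT in OE, 1.14-fold in CRISPR and 0.827-fold for OE against CRISPR (edgeR adjusted p = 0.0623).

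Upstream, 12 genes of the plastid isoprenoid supply were tested. DXS1 encodes 1-deoxy-D-xylulose 5-phosphate synthase, the entry step, and held 37.4, 46.4 and 15.3 CPM in WT, 21.3 to 34.1 in OE libraries and 36.8 to 111 in CRISPR libraries. OE libraries lay below all CRISPR libraries, a separation in that direction found in 2.76% of tested genes, and WT overlapped both. DXS1 rose 2.20-fold in CRISPR (edgeR adjusted p = 0.0123, lost without WT replicate 1 or 3) and was 0.389-fold in OE against CRISPR (edgeR adjusted p = 0.00266). DXR (OS01G0106900), the next enzyme, was the 1 gene called in OE against WT, at 0.753-fold (edgeR adjusted p = 0.0155), a call lost without WT replicate 2 or 3. DXR in OE was 0.682-fold of CRISPR. MDS (OS02G0680600) rose 1.29-fold in CRISPR (lost without any 1 WT library), and CMK (OS01G0802100), a kinase of this route, was 1.46-fold in OE against CRISPR. In all, 1 of 12 fell in OE, 2 rose in CRISPR, and in OE against CRISPR 2 were lower and 1 higher. Over all tested genes 3.19% fell in OE, 5.34% rose in CRISPR, and in OE against CRISPR 7.65% were lower and 9.71% higher.

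Downstream, 10 of 12 genes of carotenoid cleavage and abscisic acid passed the filter. In OE against WT edgeR called 0 (1 at an unadjusted p under 0.05, 0 by DESeq2), beside 4.67% of all tested genes. In CRISPR against WT it called 0 (2 at an unadjusted p under 0.05, 0 by DESeq2), beside 11.7%. Line by line against WT, 1 was called, higher in C-16, where 3.09% of all tested genes were higher. In OE against CRISPR 1 of the 10 was called, lower, beside 7.65% of all tested genes lower and 9.71% higher. NCED1 (OS02G0704000), a 9-cis-epoxycarotenoid dioxygenase that cleaves epoxidised xanthophylls toward abscisic acid, was 0.635-fold in OE against CRISPR (edgeR adjusted p = 0.00388). Its OE and CRISPR libraries overlapped, at 41.6 to 95.1 and 90.4 to 184 CPM.

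Some marker genes differed in the same comparisons. Of the 5 mesophyll markers, 1 was called in each genotype comparison. Over all tested genes 4.67% were called in OE against WT, 11.7% in CRISPR against WT and 17.4% in OE against CRISPR. Of the markers, 3 of 5 estimates were above 0 in OE against WT (median 1.02-fold). It was 5 of 5 in CRISPR against WT (median 1.16-fold) and 0 of 5 in OE against CRISPR (median 0.819-fold). The photosystem gene PSBO rose 1.45-fold in CRISPR against WT (edgeR adjusted p = 0.0265), PRK of the Calvin-Benson cycle was 0.767-fold in OE against WT (edgeR adjusted p = 0.024), and the guard cell marker SLAC1 was 1.31-fold in CRISPR against WT and 0.708-fold in OE against CRISPR (edgeR adjusted p = 0.0362 and 0.0141). The summed markers of other tissues ranged from 35.3 to 37.6 CPM in WT, 27.5 to 37.8 in OE and 35.2 to 56.0 in CRISPR libraries. Most of this sum was SLAC1 (24.2 to 50.2 CPM), with GLUA2 at 3.24 to 6.21 CPM, so it mainly repeats the SLAC1 difference. The part of the marker genes in the carotenoid gene differences was not tested.

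**Figure D5:**
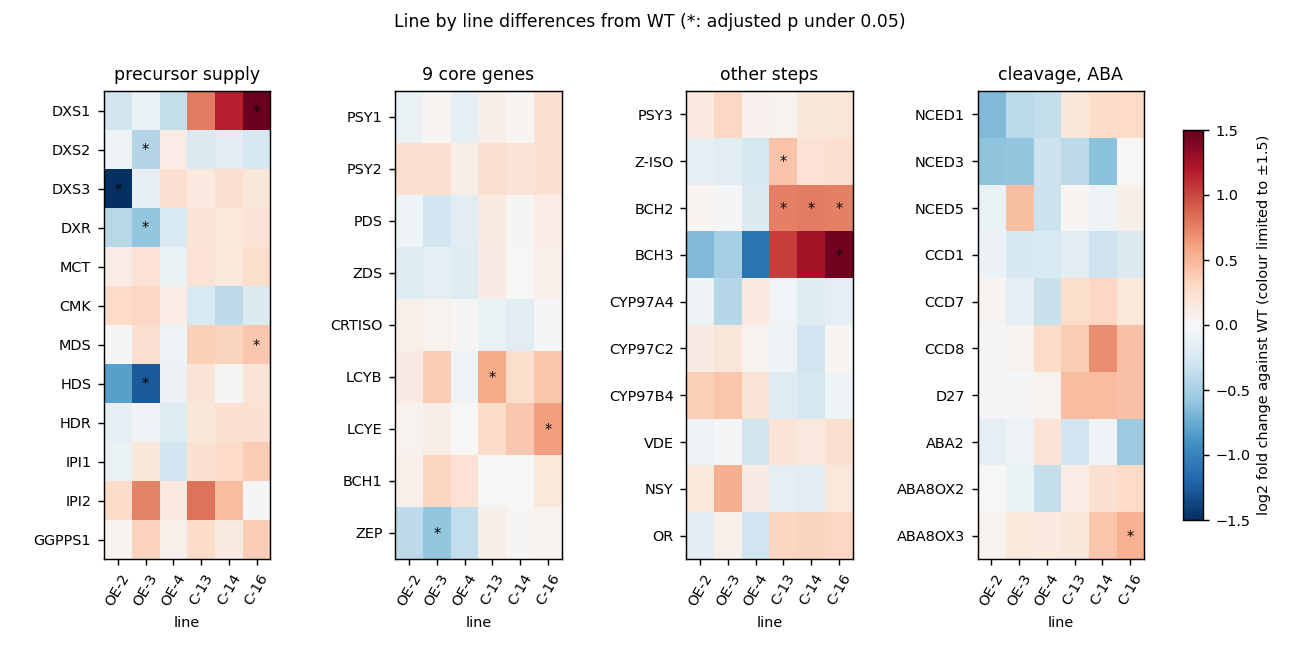
Log2 fold change of each line against WT (colour, limited to ±1.5) for precursor supply, the 9 carotenoid genes, other carotenoid steps, and cleavage and abscisic acid genes. Asterisks mark adjusted p under 0.05, which among the 9 genes are ZEP in OE-3, LCYB in C-13 and LCYE in C-16.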

How the data were processed

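The authors deposited a table of raw read counts per gene for 21 libraries. The submitters' processing notes name STAR 2.5.3a, Trim Galore, FastQC, DESeq2 and the build IRGSP-1.0, with no role. The sources used here do not name the read counter or its handling of strand and multi-mapped reads, which leaves similar paralogs and overlapping or antisense genes uncertain. The 9 genes and the lists were chosen with earlier results of these data known.

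Counts were tested with edgeR 4.0.16 (R 4.3.3, limma 3.58.1) by its quasi-likelihood test in a model of 7 lines (14 residual degrees of freedom), after filterByExpr (21044 genes) and TMM. The genotype contrasts of this model take the mean of 3 lines, and their error is that between libraries. OE and CRISPR lines were compared on counts summed per line (22553 genes, 4 residual degrees of freedom), with the spread between lines as the error. P-values were adjusted by Benjamini and Hochberg over all tested genes, and "called", "rose" and "fell" mean an adjusted p under 0.05. Intervals are 95% and SEs come from the F statistic. CPM used TMM-scaled library sizes. Ratios used a prior count of 0.5 and correlations one of 2. The model was run on simulated counts with spread between libraries but no random spread between lines. Such counts could not check the error of the OE against CRISPR comparison.

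All 9 genes were named. Other list genes were named where called in a genotype comparison, at most 6 per list and comparison, with PSY3, BCH2, BCH3 and VDE. Symbols of lists beyond the 9 genes were paired with loci from general knowledge. The RefSeq gene table matched 1 identifier. Of 55 symbols it held 17, of which 16 lay on the chromosome in the locus identifier, and 4 of the 9 genes were among the 17. Alternatives were other scaling, filters, DESeq2 1.42.0, replicate blocks, other units of replication and leaving out lines or libraries.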

Additional observations from a re-analysis of the deposited data

How the results depend on the processing

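Of 1642 recomputed values of single genes, 1463 kept their sign and their side of the threshold, 123 lost a call, 34 gained one and 22 turned in sign. The count of the 9 genes called in OE against WT, 1, became 0 with DESeq2 size factors, with the replicate block, with counts summed per line and WT as 1 sample, with only WT and OE libraries, and without line OE-2 or OE-3 (0 to 1 without 1 library). In CRISPR against WT, 0 became 2 with no filter and with the DESeq2 Wald test, and 1 without line C-13 or C-14 (0 to 2 without 1 library). In OE against CRISPR, 2 became 6 with single libraries (42.3% of all genes called, beside 17.4%) and 6 with single libraries and the replicate block (42.1%), 1 without line OE-2, OE-4 or C-14, and 0 without C-13 or C-16 (1 to 2 without 1 library). In C-13, 1 became 0 with DESeq2 size factors, a mean of at least 5 CPM or only the 6 libraries compared. In OE-3 and in C-16, 1 became 0 with only the 6 libraries compared. Without 1 library C-13 and C-16 gave 0 to 1 and OE-3 gave 0 to 2. Among all 7 lines, 5 became 3 with DESeq2 size factors and 3 with no filter (2 to 6 without 1 library). A lone WT sample is assumed to vary like the lines. The causes were not tested.

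Signs that turned were all of uncalled estimates near 0 (log2). PSY2 in OE against CRISPR was 0.00066 with no filter, 0.037 without line OE-4 and 0.0087 without C-13. BCH1 in CRISPR against WT was -0.0018 with counts summed per line and -0.020 without C-16. PSY3 in OE against CRISPR was -0.033 without OE-3, and BCH2 in OE against WT was 0.012 without OE-4. Without 1 library the ranges were -0.040 to 0.029 (PSY2), -0.087 to 0.23 (BCH1), -0.071 to 0.28 (ZEP in CRISPR against WT), -0.012 to 0.24 (PDS), -0.0036 to 0.18 (ZDS), -0.074 to 0.20 (LCYE in OE against WT) and -0.13 to 0.010 (BCH2). All 4 ratios kept their sign under every alternative run. The replicate block could not change them, because every line has 1 library of each replicate number.

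Replicate numbers pair libraries only by number. Deviations of 63 same-numbered pairs correlated between -0.31 and 0.24 (median 0.019), 12 above 0.1 and 10 below -0.1. With the replicate block ZEP in OE against WT had a log2 fold change of -0.44 and was not called (edgeR adjusted p = 0.0646). BCH1 rests on 78 to 163 counts per library, and WT rests on 3 libraries of which replicate 3 stands apart.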
